A study of Mus musculus with 18 samples.

Results

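The Cyp2c cytochromes P450 are a family of closely related oxidases of the mouse liver, and 10 of their genes were followed here: *Cyp2c29*, *Cyp2c37*, *Cyp2c38*, *Cyp2c39*, *Cyp2c40*, *Cyp2c50*, *Cyp2c54*, *Cyp2c55*, *Cyp2c69* and *Cyp2c70*. They were taken by name from an RNA-seq table of 20512 genes, which holds 15 Cyp2c genes in all. All 10 had values in every library and passed the filter on low values. Liver RNA came from 18 male C57BL/6 mice, 6 in each of 3 groups, and each library is 1 liver. The mice were 6 to 7 weeks old at the start and spent 4 months on their diets. The chow group ate a diet with 13% of kcal from fat. The HFD group ate a high-fat diet with 60% of kcal from fat. The HFD+AC261066 group ate the same high-fat diet and, for the last 2 months, was given AC261066 in its drinking water (3 mg in 100 ml), a synthetic compound that activates RARβ2, one of the receptors for retinoic acid. The water of all 3 groups held 0.2% DMSO, and all mice fasted overnight before their livers were taken. No group received AC261066 on chow, so the agonist was measured only on top of the high-fat diet.

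Cytochromes P450 of the Cyp2c family sit in the membrane of the endoplasmic reticulum and insert oxygen into their substrates with electrons passed on by the reductase encoded by *Por*. Several of them turn arachidonic acid and linoleic acid into epoxides and hydroxy acids, lipid signals that epoxide hydrolases then break down. Others act on bile acids, drugs, steroid hormones and retinoic acid. In mouse liver the family is known for strong and uneven expression between its members, for induction through the nuclear receptors CAR and PXR, and for differences between the sexes that follow growth hormone.

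The members lie in 1 cluster on chromosome 19, from 39081509 to 40261823 of the mouse genome build NCBIM37, which is mm9. The span is 1180315 bases, with 5 members on each strand. *Cyp2c65*, *Cyp2c66*, *Cyp2c67* and *Cyp2c68* lie between members, and *Cyp2c44* lies outside, from 44079512 to 44103737. Each gene has 9 exons. The start of the coding sequence is shown for each member because paired reads of 51 bases were mapped to these genes, and these are 51 bases of each. Capitals mark bases that differ from the most frequent base among the 10 members at that position. The sequences were read from GENCODE transcripts of NCBIM37, all within the first coding exon, and are in order along the chromosome:
Cyp2c55: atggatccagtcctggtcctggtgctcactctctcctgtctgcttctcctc
Cyp2c29: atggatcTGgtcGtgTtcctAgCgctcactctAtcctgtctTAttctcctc
Cyp2c38: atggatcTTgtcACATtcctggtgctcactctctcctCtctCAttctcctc
Cyp2c39: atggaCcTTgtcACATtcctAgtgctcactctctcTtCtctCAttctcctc
Cyp2c40: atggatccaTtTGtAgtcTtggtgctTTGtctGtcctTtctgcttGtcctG
Cyp2c69: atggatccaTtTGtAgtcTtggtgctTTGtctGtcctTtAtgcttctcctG
Cyp2c37: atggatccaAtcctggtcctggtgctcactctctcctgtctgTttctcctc
Cyp2c54: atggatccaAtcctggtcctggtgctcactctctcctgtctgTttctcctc
Cyp2c50: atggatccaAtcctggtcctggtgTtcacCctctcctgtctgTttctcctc
Cyp2c70: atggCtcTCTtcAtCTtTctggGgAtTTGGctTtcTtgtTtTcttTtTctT

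*Cyp2c55* held the most frequent base at all 51 positions, and *Cyp2c70* differed at 21. *Cyp2c37* and *Cyp2c54* had the same 51 bases, so a single read from there does not tell them apart. The reads were paired, and the other read of the pair can. *Cyp2c40* and *Cyp2c69* differed from the most frequent base at 12 positions each, most of them shared. Over whole coding sequences, the closest pair was *Cyp2c40* and *Cyp2c69*, with 97.9% identity. *Cyp2c37* and *Cyp2c50* had 96.1% and *Cyp2c38* and *Cyp2c39* had 94.2%. The most distant pair was *Cyp2c69* and *Cyp2c70*, with 65.8%.

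The share of a transcript that another Cyp2c gene repeats base for base differed widely between members. Of the 51-base stretches of the *Cyp2c40* transcript, 71.4% were identical to a stretch of another Cyp2c transcript, and 98.1% were so when 2 mismatches were allowed. The corresponding shares were 50.9% and 89.1% for *Cyp2c69*, 30.1% and 73.4% for *Cyp2c50*, 28.4% and 73.6% for *Cyp2c37*, and 24.4% and 63.4% for *Cyp2c54*. *Cyp2c39* had 10.8% and 51.6%, and *Cyp2c38* had 7.09% and 30.2%. *Cyp2c29* shared 0.413% exactly and 17.6% with 2 mismatches. *Cyp2c55* and *Cyp2c70* shared 0 stretches exactly, and with 2 mismatches 0.566% and 0. The values of *Cyp2c40*, *Cyp2c69*, *Cyp2c37*, *Cyp2c50* and *Cyp2c54* are therefore uncertain, because some of their reads can match another gene. How such reads were counted is not given in the sources used here. The other read of a pair was not taken into account in these shares. *Cyp2c70* and *Cyp2c55* have little or no such overlap, and *Cyp2c29* has little of it exactly and more with mismatches.

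**Figure D1:**
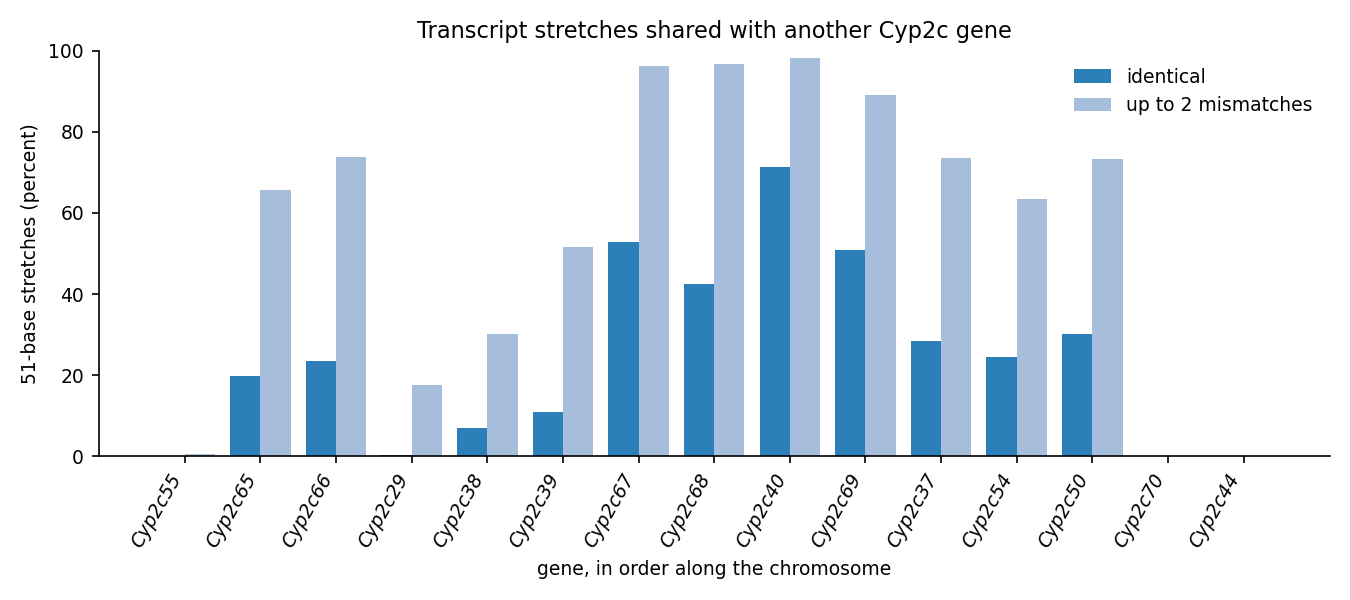
Share of the 51-base stretches of each Cyp2c transcript, in percent, that another Cyp2c gene also holds, identically (dark bars) or with up to 2 mismatches (light bars), with genes in order along chromosome 19. The bars of *Cyp2c40* reach 71.4% and 98.1%, and *Cyp2c70* has none.

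The table holds log2 values whose means over libraries numbered 1 to 3 and 4 to 6 were equal for every gene to within rounding, as after the removal of a batch effect. Both sets hold 3 livers of each group, and for members differences within each set are given beside the called ones and where the sets stood on opposite sides of 0. The depth of the libraries is unknown from these values, and errors rest on the spread between livers. The libraries had the profile of liver: *Alb*, serum albumin, had a median log2 value of 21.2 in chow, 21.1 in HFD and 21.0 in HFD+AC261066 livers. Of 13268 genes tested with limma, 32.1% had an adjusted p (Benjamini-Hochberg) under 0.1, and are named called here, for HFD against chow, 15.8% higher and 16.3% lower. For HFD+AC261066 against HFD, 4.38% were called, 2.13% higher and 2.25% lower. For HFD+AC261066 against chow, 19.7% were called, 9.79% higher and 9.89% lower. Both comparisons of HFD with another group share the HFD livers, and both comparisons with chow share the chow livers.

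The third chow liver stood apart in this family. It had the lowest value of the 6 chow livers for 9 of the 10 members, all except *Cyp2c70*, and lay a median of 0.85 on the log2 scale below the middle of the other 5. The same liver was lowest for 24.9% of all genes tested and highest for 21.5%, and its median deviation over all genes was -0.01. The differences of members from chow are therefore also given without it.

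**Figure D2:**
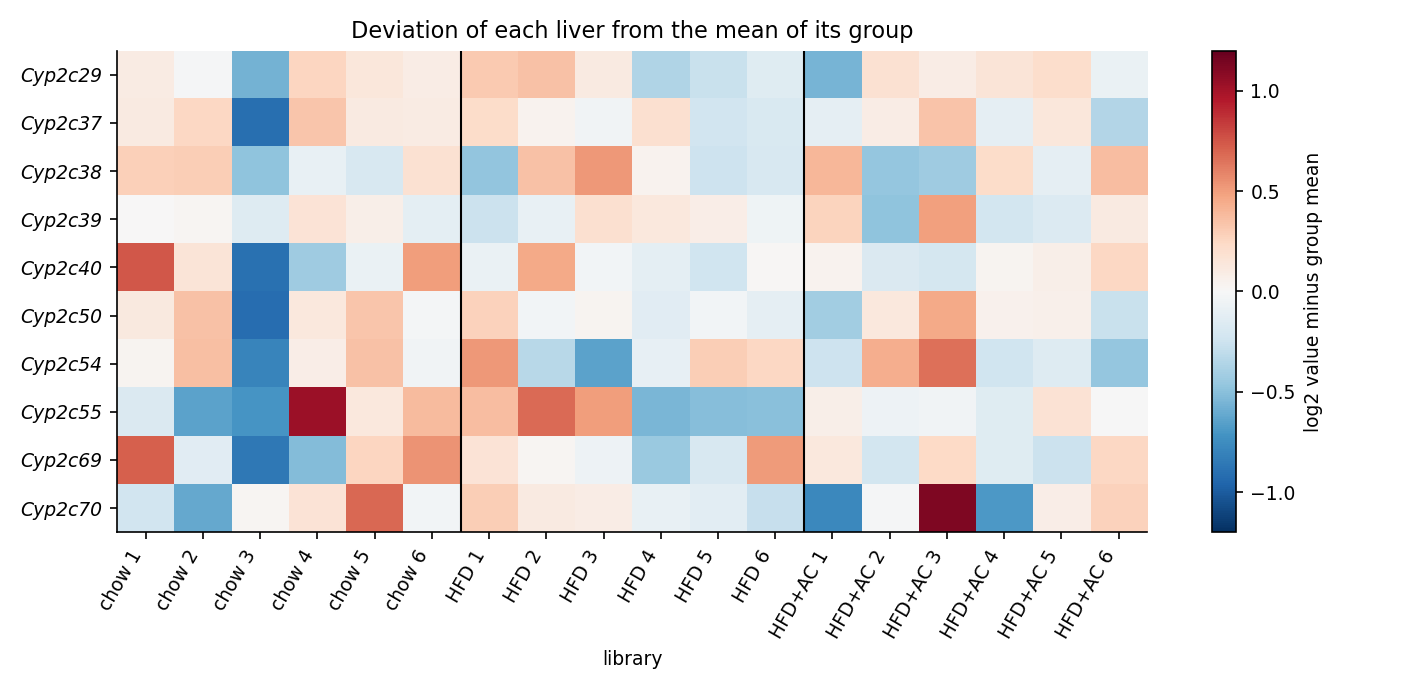
Log2 value of each Cyp2c gene (rows) in each of the 18 libraries (columns) minus the mean of its group of 6 livers, with red above and blue below the mean. The column of the third chow liver is blue for 9 of 10 members, and *Cyp2c55* splits by library number in the chow and HFD groups.

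Levels differed by several orders of magnitude between members. Divided by transcript length, the level (2 raised to the log2 value, per kb) of *Cyp2c29*, the main constitutive member and an epoxygenase inducible by phenobarbital, made up a median of 48.2% of the summed level of the 10 members in chow livers, with a range of 42.7% to 50.7% over the 6 livers. It made up 52.0% (46.8% to 58.9%) in HFD and 53.8% (45.1% to 56.1%) in HFD+AC261066 livers. *Cyp2c50*, an arachidonic acid epoxygenase, came next with medians of 22.6%, 22.7% and 23.3% in the 3 groups. *Cyp2c37* and *Cyp2c54*, which oxidise the same fatty acid, had medians of 12.9% and 10.4% in chow. *Cyp2c70* had 4.47% in chow, 4.74% in HFD and 2.07% in HFD+AC261066 livers, and *Cyp2c38* had 1.27%, 1.71% and 1.06%. *Cyp2c39*, *Cyp2c69*, *Cyp2c55* and *Cyp2c40* each had small shares in every group, from a median of 0.182% for *Cyp2c39* in HFD to 0.0156% for *Cyp2c40* in HFD+AC261066 livers. The full transcript length was used, so stretches shared between genes were not allowed for in these levels or in their order. *Cyp2c40* and *Cyp2c69* share the most.

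In all 3 groups the order of the per-kb levels ran *Cyp2c29*, *Cyp2c50*, *Cyp2c37*, *Cyp2c54*, *Cyp2c70*, *Cyp2c38* and *Cyp2c39*, by their medians. *Cyp2c40* came last in each. *Cyp2c69* lay above *Cyp2c55* in chow and HFD+AC261066 livers and below it in HFD livers, and their ranges overlapped in every group. *Cyp2c37* and *Cyp2c54* also overlapped in every group. *Cyp2c54* and *Cyp2c70* overlapped in chow and HFD livers and were apart in HFD+AC261066 livers, where *Cyp2c70* instead overlapped with *Cyp2c38*. *Cyp2c29* lay above *Cyp2c50* with no overlap in each group. The summed per-kb level had medians of 40494 in chow, 41899 in HFD and 44257 in HFD+AC261066 livers, with overlapping ranges of 23579 to 44007, 37359 to 52856 and 30888 to 51051. In whole-liver RNA, fewer hepatocytes and less RNA per hepatocyte cannot be told apart.

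**Figure D3:**
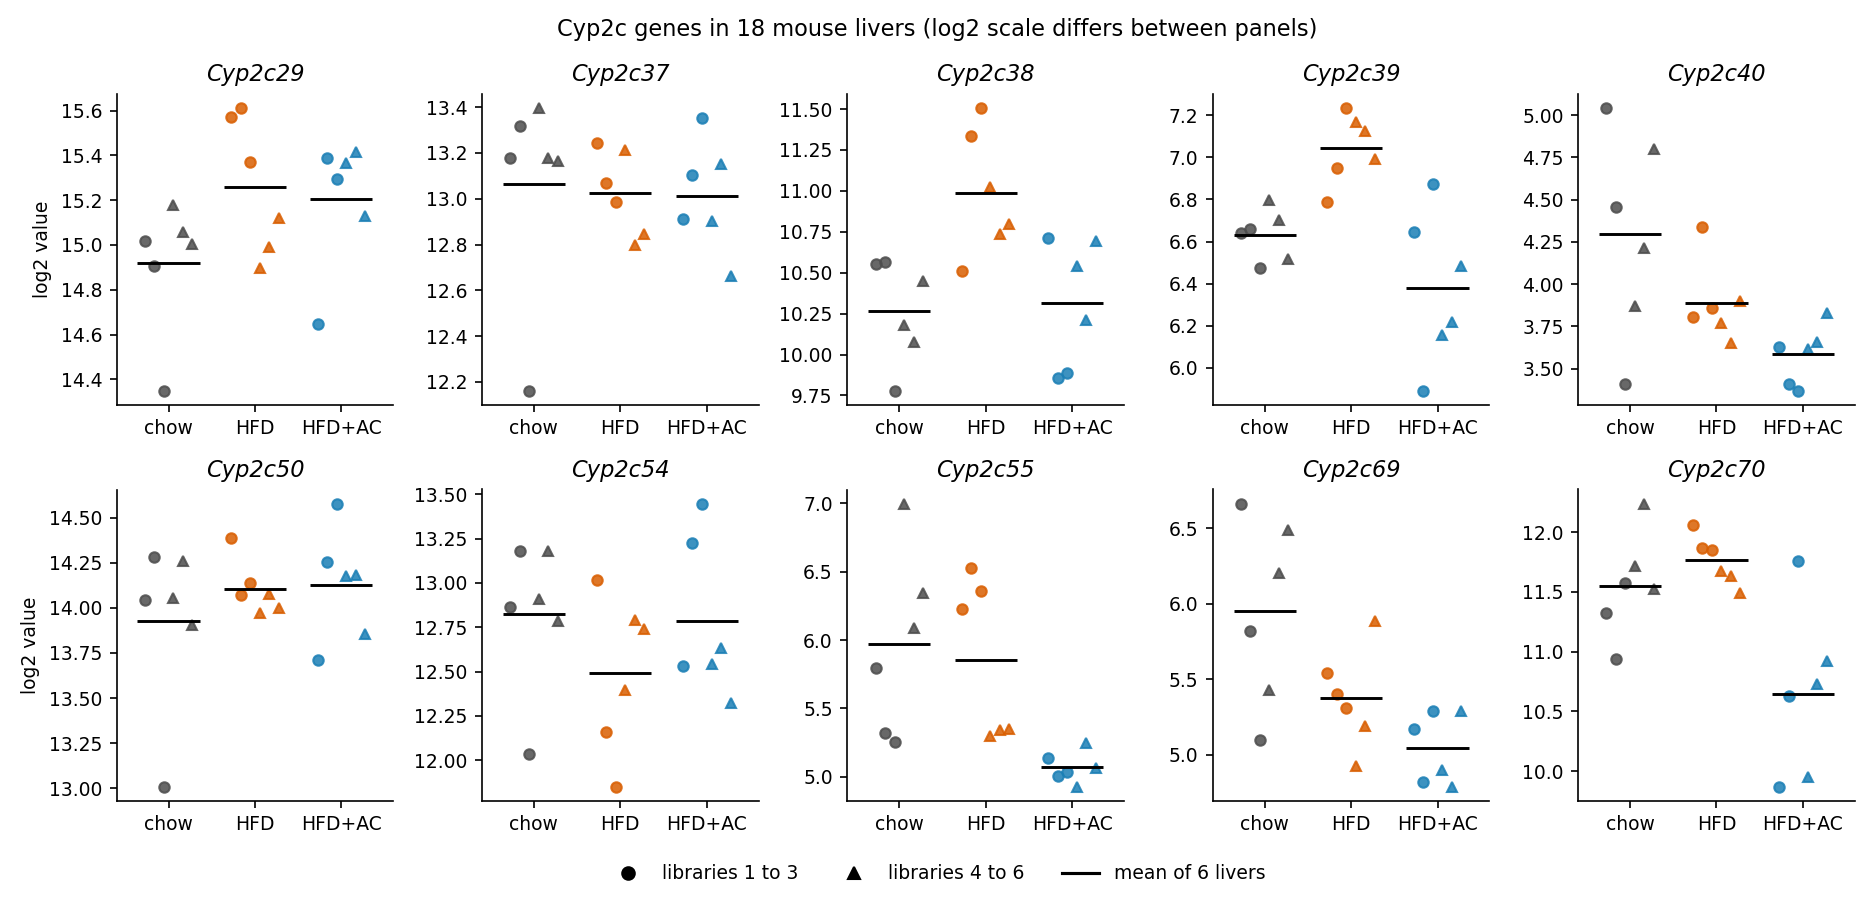
Log2 value of each Cyp2c gene in each liver of the chow, HFD and HFD+AC261066 groups, with circles for libraries 1 to 3, triangles for libraries 4 to 6 and a line at the mean of 6 livers. Each panel has its own scale. *Cyp2c38* and *Cyp2c39* are highest in HFD livers, and 5 of the 6 *Cyp2c70* values of HFD+AC261066 livers lie below 10.94.

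The first comparison asks how the high-fat diet changed the family. *Cyp2c38* and *Cyp2c39*, genes next to each other that share 94.2% of their coding bases, rose in HFD livers, and *Cyp2c69* fell. The other 7 members, among them the 4 most abundant, did not pass the test. With 3 of 10 members called, against 32.1% of all genes, the family was called about as often as the background. The median log2 difference of the 10 members was 0.07, beside 0.01 over all genes, with 5 positive and 5 negative. In 0 of 10 members did the 2 groups of livers not overlap, beside 9.72% of all genes.

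*Cyp2c38* had log2 values of 9.78, 10.31 and 10.56 (lowest, median and highest of 6) in chow livers. In HFD livers they were 10.51, 10.91 and 11.51. The groups overlapped only in that the lowest HFD liver lay below the highest 2 chow livers. The log2 difference was 0.72 (SE 0.18, adjusted p = 0.00926), a 1.65-fold change. It was 0.82 in libraries 1 to 3, 0.62 in libraries 4 to 6, and 0.62 (adjusted p = 0.0198) without the third chow liver.

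*Cyp2c39*, whose product is known to hydroxylate retinoic acid in mouse liver, had log2 values of 6.47, 6.65 and 6.80 in chow livers. In HFD livers they were 6.79, 7.06 and 7.24. A single HFD liver lay below the highest chow liver. The log2 difference was 0.41 (SE 0.13, adjusted p = 0.0267), with 0.40 in libraries 1 to 3 and 0.42 in libraries 4 to 6. Without the third chow liver it was 0.38 (adjusted p = 0.0492). The calls of *Cyp2c38* and *Cyp2c39* held without any 1 liver and were lost in libraries 1 to 3 alone, with 3 livers a group (adjusted p = 0.170 and 0.322).

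*Cyp2c69*, known for higher levels in females, had log2 values of 5.10, 6.01 and 6.66 in chow livers. Its HFD values were 4.93, 5.36 and 5.89, within or below the chow range. The log2 difference was -0.57 (SE 0.22, adjusted p = 0.0614). It was -0.44 in libraries 1 to 3 and -0.71 in libraries 4 to 6, and -0.74 (adjusted p = 0.0100) without the third chow liver. The call was lost when any 1 of 5 other livers was left out (chow 1, 5 or 6, HFD 4 or 5), with differences from -0.43 to -0.54 and adjusted p-values from 0.109 to 0.152. It was lost in each set alone (adjusted p = 0.433 and 0.106). *Cyp2c40*, its near-copy, had -0.41 (SE 0.20, adjusted p = 0.137), and -0.59 (adjusted p = 0.0140) without the third chow liver. It was -0.30 in libraries 1 to 3 and -0.52 in libraries 4 to 6, where it was called (adjusted p = 0.0714). It was also called without the fourth chow liver (-0.50, adjusted p = 0.0906) or the second HFD liver (-0.50, adjusted p = 0.0824), and after quantile normalization (-0.49, adjusted p = 0.0984).

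*Cyp2c29* had log2 values of 14.35, 15.01 and 15.18 in chow livers and 14.90, 15.24 and 15.61 in HFD livers. Its difference of 0.34 (SE 0.16) was not called (adjusted p = 0.124). It was 0.76 in libraries 1 to 3 and -0.08 in libraries 4 to 6, and 0.23 without the third chow liver (adjusted p = 0.271). It was called without the fourth HFD liver (0.41, adjusted p = 0.0774), the fifth HFD liver (0.39, adjusted p = 0.0994) or the first HFD+AC261066 liver (0.34, adjusted p = 0.0860). After quantile normalization it was called as well (0.46, adjusted p = 0.0301). *Cyp2c37*, *Cyp2c50* and *Cyp2c54* had -0.04, 0.18 and -0.33, with 95% confidence intervals from -0.38 to 0.30, -0.18 to 0.55 and -0.80 to 0.13. Without the third chow liver *Cyp2c54* was called lower, at -0.49 (adjusted p = 0.0877), while *Cyp2c37* had -0.22 and *Cyp2c50* had -0.00133, neither called. The sets stood on opposite sides of 0 for *Cyp2c37*, with 0.21 in libraries 1 to 3 and -0.29 in libraries 4 to 6, and for *Cyp2c50*, with 0.42 and -0.06. For *Cyp2c54* they gave -0.35 and -0.31. *Cyp2c70* had 0.21, with an interval from -0.30 to 0.72, and again 0.21 without the third chow liver. It was 0.65 in libraries 1 to 3 and -0.23 in libraries 4 to 6.

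**Figure D4:**
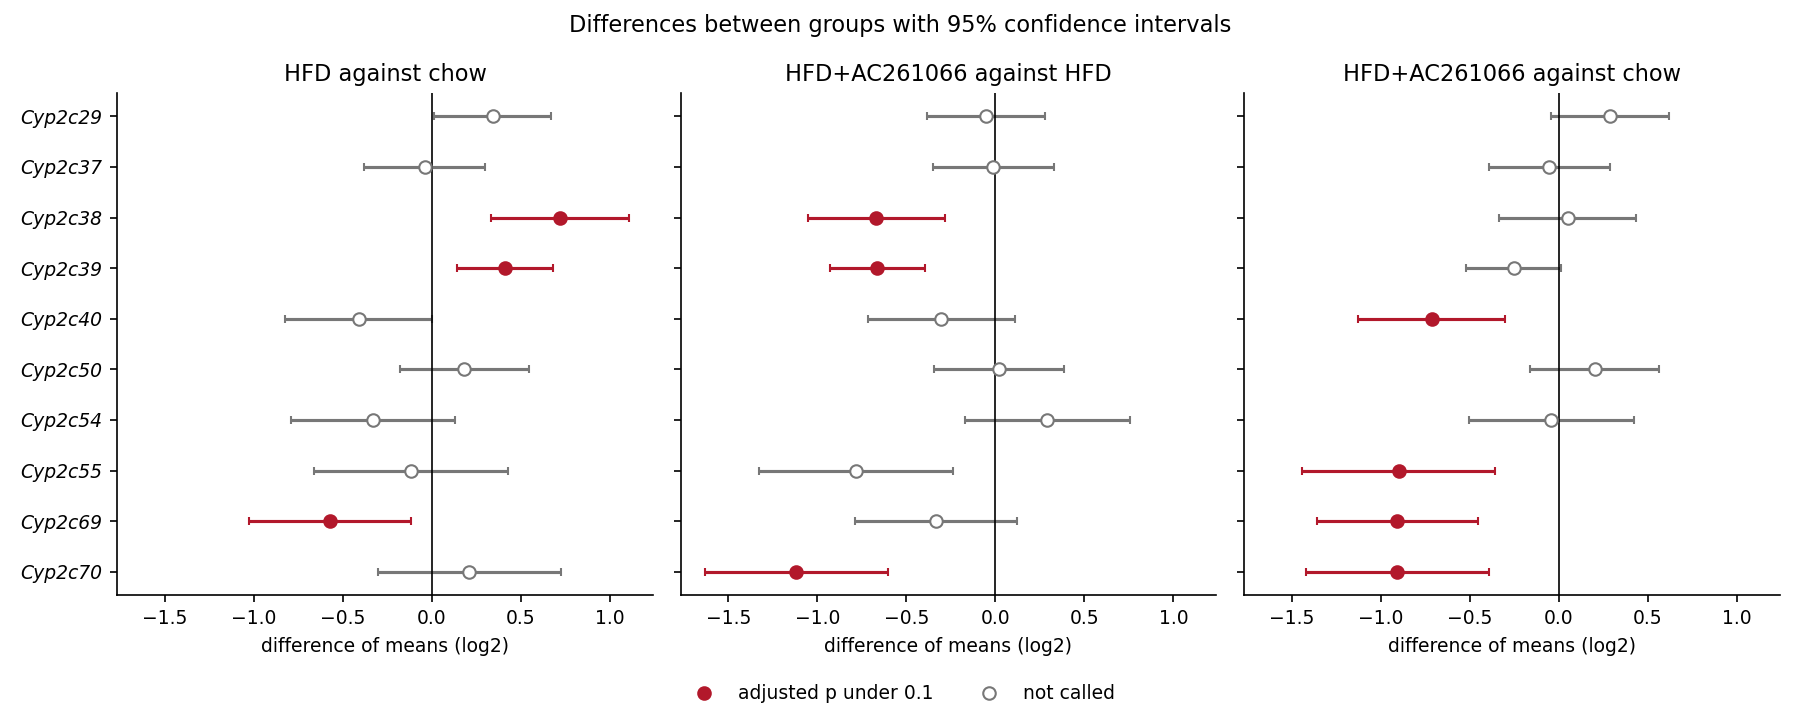
Difference of group means on the log2 scale (points) with 95% confidence intervals (bars) for the 10 members in the 3 comparisons, filled where the adjusted p was under 0.1. *Cyp2c38* and *Cyp2c39* lie right of 0 for HFD against chow and left of 0 for HFD+AC261066 against HFD, and *Cyp2c70* lies farthest left for HFD+AC261066 against HFD, at -1.12.

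The next comparison asks what AC261066 did in mice on the high-fat diet. *Cyp2c70*, *Cyp2c38* and *Cyp2c39* fell, which is 3 of 10 members lower beside 2.25% of all genes, and 4.38% called in either direction. By limma 0 members rose, also at an unadjusted p under 0.05. *Cyp2c29*, *Cyp2c37* and *Cyp2c50*, the 3 most abundant members, had differences of -0.05, -0.01 and 0.02, with 95% confidence intervals from -0.38 to 0.28, -0.35 to 0.33 and -0.34 to 0.38. *Cyp2c29* was -0.41 in libraries 1 to 3 and 0.30 in libraries 4 to 6, *Cyp2c37* was 0.02 and -0.05, and *Cyp2c50* was -0.02 and 0.06. *Cyp2c54* had 0.29 (adjusted p = 0.544), as 0.73 and -0.14. The median over the 10 members was -0.32, beside 0.00 over all genes, and 8 of 10 differences were negative. Several members share long stretches of sequence, *Cyp2c70* not among them, so the 10 differences are not all independent of each other.

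*Cyp2c70* is the enzyme that makes muricholic acids, the bile acids that mice have and humans lack. Its log2 values were 11.49, 11.76 and 12.06 in HFD livers. In HFD+AC261066 livers they were 9.87, 10.68 and 11.76. The third HFD+AC261066 liver, at 11.76, lay within the HFD range and the other 5 lay below it. The log2 difference was -1.12 (SE 0.25, adjusted p = 0.0244), which is 0.461 times the HFD level. It was -1.17 in libraries 1 to 3 and -1.06 in libraries 4 to 6. The call held without any 1 liver and was lost in libraries 1 to 3 alone (adjusted p = 0.280). Its spread was also wide in the treated group, with an SD of 0.69 that exceeded that of 99.3% of genes there, beside 0.20 in HFD livers.

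*Cyp2c39* had log2 values of 5.89, 6.35 and 6.87 in HFD+AC261066 livers, beside 6.79 to 7.24 in HFD livers. Only the third HFD+AC261066 liver reached the HFD range. The log2 difference was -0.66 (SE 0.13, adjusted p = 0.0115), with -0.52 in libraries 1 to 3 and -0.81 in libraries 4 to 6. The call held without any 1 liver. It was lost in libraries 1 to 3 alone, with 3 livers a group (adjusted p = 0.387).

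*Cyp2c38* had log2 values of 9.86, 10.38 and 10.71 in HFD+AC261066 livers, beside 10.51 to 11.51 in HFD livers. The groups overlapped: 3 treated livers lay above the lowest HFD liver. The log2 difference was -0.67 (SE 0.18, adjusted p = 0.0669), with -0.97 in libraries 1 to 3 and -0.37 in libraries 4 to 6. The call was lost when any 1 of 6 livers was left out (HFD 2, 3 or 4, HFD+AC261066 2, 3 or 5), with differences from -0.56 to -0.66 and adjusted p-values from 0.103 to 0.150. It was also lost in each set alone (adjusted p = 0.295 and 0.157). Against chow, *Cyp2c38* and *Cyp2c39* of HFD+AC261066 livers had 0.05 and -0.25, neither of them called. Without the third chow liver they had -0.05 and -0.29, again not called. The sets gave -0.15 and 0.25 for *Cyp2c38* and -0.12 and -0.39 for *Cyp2c39*. *Cyp2c39* was called there, at -0.35 (adjusted p = 0.0439), without the third HFD+AC261066 liver. After quantile normalization it was called at -0.33 (adjusted p = 0.0966).

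The upstream sequence of these 3 genes is shown because they are the members that fell with AC261066. Each runs from 250 bases before to 50 bases after the RefSeq start site in build GRCm38.p6, on the strand of the gene: *Cyp2c38* at chr19:39463026-39463325 on the minus strand, *Cyp2c39* at chr19:39510572-39510871 on the plus strand and *Cyp2c70* at chr19:40187237-40187536 on the minus strand. Capitals mark matches, on either strand, to the FOXA motif, the nuclear receptor half-site, the HNF4A motif or the letters of the TATA box, all of which are given after the sequences:
Cyp2c38: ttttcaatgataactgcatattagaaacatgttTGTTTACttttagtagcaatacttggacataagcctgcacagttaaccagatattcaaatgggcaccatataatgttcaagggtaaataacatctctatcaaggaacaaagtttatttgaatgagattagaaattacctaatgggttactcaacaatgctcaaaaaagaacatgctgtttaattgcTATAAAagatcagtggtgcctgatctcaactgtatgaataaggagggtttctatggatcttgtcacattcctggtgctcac
Cyp2c39: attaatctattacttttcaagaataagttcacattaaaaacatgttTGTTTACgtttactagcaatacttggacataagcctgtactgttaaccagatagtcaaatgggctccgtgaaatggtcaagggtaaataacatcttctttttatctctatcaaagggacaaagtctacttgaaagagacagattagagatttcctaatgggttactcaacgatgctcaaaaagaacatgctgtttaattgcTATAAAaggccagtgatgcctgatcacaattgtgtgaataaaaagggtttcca
Cyp2c70: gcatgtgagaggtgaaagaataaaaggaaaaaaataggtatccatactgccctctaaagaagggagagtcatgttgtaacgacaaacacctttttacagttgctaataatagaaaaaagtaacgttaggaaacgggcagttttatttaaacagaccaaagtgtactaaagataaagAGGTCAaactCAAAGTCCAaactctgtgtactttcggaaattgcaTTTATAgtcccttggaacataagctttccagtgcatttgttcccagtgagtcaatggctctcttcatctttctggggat

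The upstream windows of *Cyp2c38* and *Cyp2c39* were alike, with 88.2% identity over 271 aligned bases. The FOXA motif TGTTTAC stood 217 bases before the start site of *Cyp2c38* and 204 before that of *Cyp2c39*, and 3.65% of all 32851 RefSeq windows held it. The window of *Cyp2c70* held the receptor half-site AGGTCA 74 bases before the start, and 16.3% of all windows held this motif. Of the 10 windows of members 3 held it, also those of *Cyp2c29* and of another start of *Cyp2c39*. The *Cyp2c70* window also held CAAAGTCCA, the HNF4A motif, 64 bases before the start, found in 0.475% of all windows. The letters TATAAA, on either strand, were in 7 of the 10 windows of members and in 13.6% of all windows. They stood 31 bases before the start of *Cyp2c38* and only 3 before that of *Cyp2c39*. In the window of *Cyp2c70* the strand of the gene read TTTATA, 29 bases before the start, with TATAAA on the opposite strand. In the windows of *Cyp2c40* and *Cyp2c69* the letters TATAAA lay after the start. Among the 10 windows of 9 members, the HNF4A motif was also in those of *Cyp2c40* and *Cyp2c69*, which are 98.9% identical over 270 aligned bases, so 3 windows held it. TTCNNNGAA, the STAT5 palindrome, was in none of the 10 and in 8.30% of all windows. *Cyp2c39* had a second annotated start, and *Cyp2c54* had no window. A match is a run of letters and not a known site.

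The last comparison sets HFD+AC261066 livers against chow. *Cyp2c40*, *Cyp2c55*, *Cyp2c69* and *Cyp2c70* were lower, 4 of 10 members beside 9.89% of all genes, and by limma 0 were higher, also at an unadjusted p under 0.05. The median over the members was -0.15, beside 0.00 over all genes. *Cyp2c55* was the 1 member whose livers did not overlap between these groups, beside 3.69% of all genes. All 4 calls held without any 1 liver. Without the first HFD+AC261066 liver *Cyp2c29* was also called, as higher, at 0.40 (adjusted p = 0.0956). In libraries 1 to 3 alone 0 members were called, beside 123 of all genes. In libraries 4 to 6 alone 6 members were called, all lower, beside 2857 of all genes, 1496 of them lower. The 6 were the 4 members called with all livers, *Cyp2c39* (-0.39, adjusted p = 0.0519) and *Cyp2c54* (-0.46, adjusted p = 0.0391). Of the other members, *Cyp2c29*, *Cyp2c37*, *Cyp2c50* and *Cyp2c54* had 0.29, -0.05, 0.20 and -0.04 with all livers. Without the third chow liver they had 0.17, -0.23, 0.02 and -0.20. The sets stood on opposite sides of 0 for *Cyp2c37*, *Cyp2c50* and *Cyp2c54*. These members had 0.24, 0.40 and 0.37 in libraries 1 to 3, and -0.34, -0.000292 and -0.46 in libraries 4 to 6.

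*Cyp2c69* had log2 values of 4.79, 5.04 and 5.29 in HFD+AC261066 livers, beside 5.10 to 6.66 in chow. Its difference was -0.91 (SE 0.22, adjusted p = 0.0131), with -0.77 in libraries 1 to 3 and -1.05 in libraries 4 to 6. *Cyp2c40*, which hydroxylates arachidonic acid, had 3.41, 4.34 and 5.04 in chow livers and 3.37, 3.62 and 3.83 in HFD+AC261066 livers. Its difference was -0.71 (SE 0.20, adjusted p = 0.0258), with -0.83 and -0.60 in the 2 sets. The HFD medians lay between those of these groups for both genes, and neither gene passed the test for HFD+AC261066 against HFD, with -0.33 for *Cyp2c69* and -0.30 for *Cyp2c40* (adjusted p = 0.462 and 0.463). The 2 genes share most of their sequence. They also share stretches with *Cyp2c68*, exactly in 33.3% for *Cyp2c40* and 18.5% for *Cyp2c69*. *Cyp2c68* had a far higher chow median, 11.35, was lower in the same comparison (-0.58), and had r of 0.77 and 0.83 with them. *Cyp2c67*, with 37.7% and 31.3%, had a chow median of 11.43 and was not called. How reads that match several genes were counted is not given in the sources used here. The part of such reads in these differences was not tested. *Cyp2c70* was 0.533 times its chow level (log2 difference -0.91, SE 0.25, adjusted p = 0.0235), with -0.53 in libraries 1 to 3 and -1.29 in libraries 4 to 6. Without the third chow liver the 4 differences ran from -0.89 to -1.08 and remained called, with adjusted p-values from 0.00294 to 0.0317.

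*Cyp2c55*, a hydroxylase of arachidonic acid known as a target of CAR and PXR, was low with AC261066. As deposited, its values were uniform there and split by library set in the other groups. Its log2 values in HFD+AC261066 livers were 4.93, 5.05 and 5.25, with an SD of 0.11. In chow livers the SD was 0.66, and libraries 1 to 3 had 5.80, 5.32 and 5.26 while libraries 4 to 6 had 7.00, 6.09 and 6.34. In HFD livers the sets stood the other way round, with 6.23, 6.53 and 6.36 in libraries 1 to 3 and 5.30, 5.34 and 5.35 in libraries 4 to 6. The pooled difference of HFD from chow, -0.12 (adjusted p = 0.781), was -0.26 without the third chow liver (adjusted p = 0.488). With all livers it was the mean of 0.91 in libraries 1 to 3 (adjusted p = 0.0235) and -1.15 in libraries 4 to 6 (adjusted p = 0.00286).

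The difference between these within-set differences was -2.06 (95% confidence interval -2.60 to -1.51, adjusted p = 0.00271, limma interaction over 13268 genes). Of all genes 8 were called in this test, and *Cyp2c55* ranked 2 by p-value. *Scd1*, the stearoyl-CoA desaturase, ranked 1 with -4.27 (adjusted p = 0.00188). *Scd1* was also the gene outside the family whose log2 values were most like those of *Cyp2c55* over the 18 libraries, with r = 0.93, and r = 0.89 after subtracting group means. The points share libraries and sets, and r is a description here. In chow livers *Scd1* ran from 13.99 to 14.18 in libraries 1 to 3 and from 16.11 to 16.82 in libraries 4 to 6. In HFD livers it ran from 14.61 to 16.06 and from 12.99 to 14.29.

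Against chow, *Cyp2c55* of HFD+AC261066 livers differed by -0.90 (SE 0.26, adjusted p = 0.0311), with -0.40 in libraries 1 to 3 and -1.40 in libraries 4 to 6. These within-set differences also differed, by -0.998 (adjusted p = 0.0648). Against HFD the difference was -0.78 (SE 0.26). It missed the threshold (adjusted p = 0.122) although all 6 treated livers lay below all 6 HFD livers, the 1 member beside 1.74% of all genes for which this was so. It was -1.31 in libraries 1 to 3 (adjusted p = 0.0224) and -0.25 in libraries 4 to 6. It was also called without the third chow liver (adjusted p = 0.0928), without the fourth (0.0778), or in a fit without chow livers (0.0726), each time at -0.78.

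**Figure D5:**
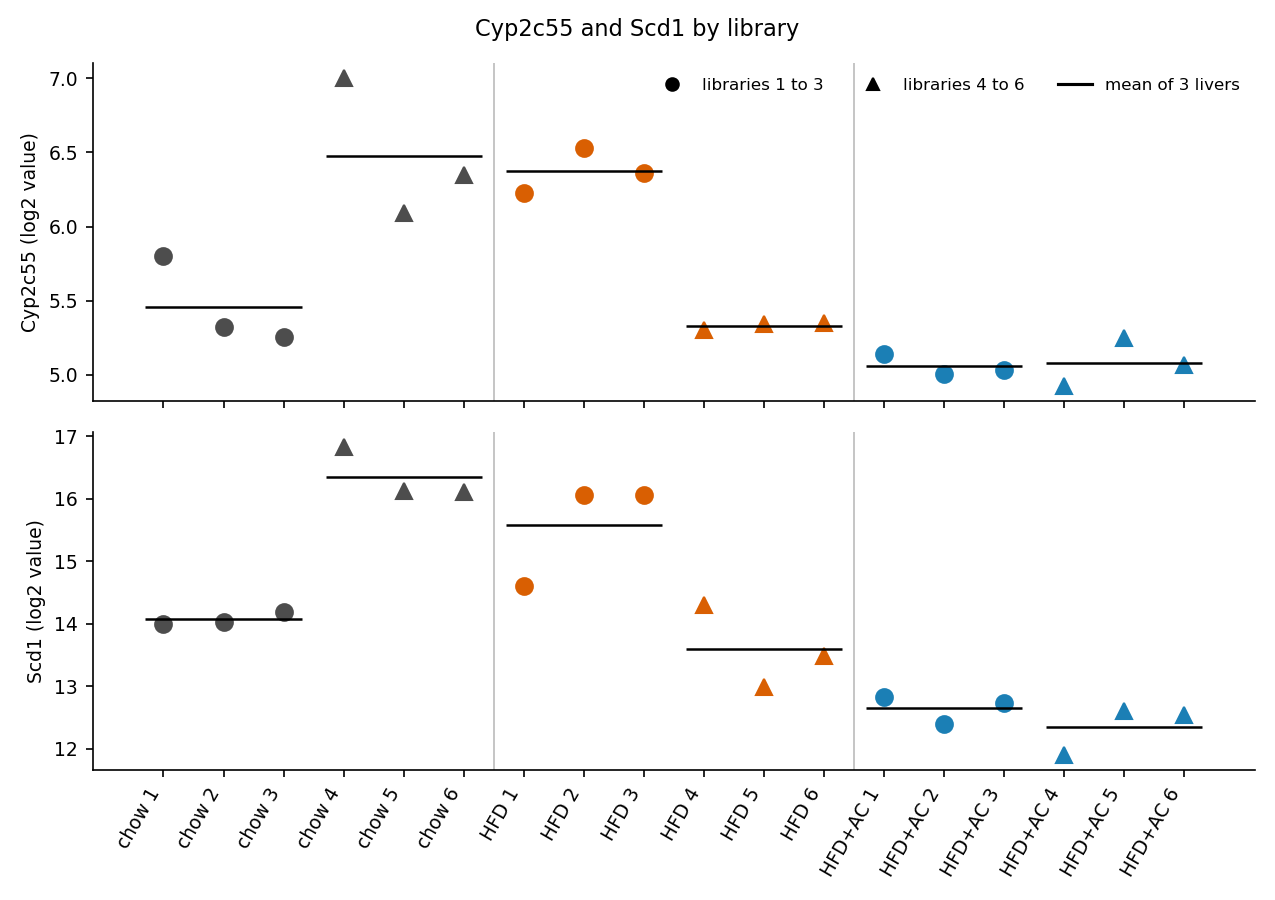
Log2 values of *Cyp2c55* (top) and *Scd1* (bottom) in the 18 libraries, with circles for libraries 1 to 3, triangles for libraries 4 to 6 and lines at the means of 3 livers. In both panels chow libraries 4 to 6 and HFD libraries 1 to 3 are high, and the HFD+AC261066 livers are low.

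The members did not move as a block. Of 45 pairs, 39 had a positive r over the 18 libraries, with a median of 0.19, and 3 had r over 0.7. These were *Cyp2c40* with *Cyp2c69* (0.87), *Cyp2c37* with *Cyp2c50* (0.81) and *Cyp2c29* with *Cyp2c50* (0.75). The first 2 are also the 2 closest pairs in coding sequence, and the third liver of chow is low in all 5 genes. *Cyp2c38* and *Cyp2c39*, close in sequence and in position, had 0.62, and 0.27 after subtracting group means. *Cyp2c38* and *Cyp2c54* had -0.59.

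Outside the family, the genes most like each member over the 18 libraries were as follows, as a description with r in parentheses. For *Cyp2c38* they were *Pparg*, a receptor of fat storage (0.90), and *Slc22a29* (0.87). *Pparg* had log2 values of 7.72, 8.03 and 8.08 in chow, 8.31, 8.63 and 9.36 in HFD and 7.79, 8.26 and 8.77 in HFD+AC261066 livers. For *Cyp2c39* they were *Smpdl3b* (0.82) and *Nt5e* (0.80), and for *Cyp2c70* *Aldh1l1* (0.87) and *Selenbp1* (0.87). For *Cyp2c40* they were *Arf6* (0.91) and *Prkaa2* (0.87), and for *Cyp2c69* *Arf6* (0.87) and *Atf1* (0.83). *Cyp2c50* was most like *Adh4*, an alcohol dehydrogenase (0.90), and *Cyb5*, the electron carrier cytochrome b5 (0.83). *Cyp2c54* was most like *Capn8* (0.87) and *Selenbp2* (0.87), *Cyp2c37* like *Rnf114* (0.82) and *Rab5b* (0.78), *Cyp2c29* like *Itgb4* (0.81) and *Slc8a1* (0.80), and *Cyp2c55*, after *Scd1*, like *Gstm6* (0.88). *Adh4* was also lowest in the third chow liver, at 10.36 beside 11.20 to 11.42 in the other 5.

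Of the 5 other Cyp2c genes, 3 were tested. *Cyp2c44*, an epoxygenase outside the cluster that shares no 51-base stretch with a member even with 2 mismatches, fell in HFD livers, with a log2 difference of -0.66 (SE 0.14, adjusted p = 0.00230). Its values were 12.62, 12.88 and 13.02 in chow, 11.99, 12.10 and 12.62 in HFD and 12.09, 12.52 and 12.96 in HFD+AC261066 livers, and its difference of HFD+AC261066 from HFD was 0.34 (adjusted p = 0.214). *Cyp2c68* was lower in HFD+AC261066 than in chow livers, by -0.58 (SE 0.12, adjusted p = 0.00686). *Cyp2c67* was not called in any comparison. *Cyp2c65* and *Cyp2c66* lay under the minimum, with mean log2 values in chow livers of -2.72 and -3.97.

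Of 8 genes that serve the P450 reaction, as redox partners or in heme synthesis and breakdown, 1 rose and 1 fell in HFD against chow, beside 32.1% of all genes called. *Por* fell by 0.24 on the log2 scale (SE 0.10, adjusted p = 0.0790) and *Cyb5b*, the mitochondrial cytochrome b5, rose by 0.23 (adjusted p = 0.0816). None of the 8 were called by limma in either comparison with HFD+AC261066, where 1 was higher and 2 lower against HFD at an unadjusted p under 0.05, and 2 higher and 1 lower against chow.

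Of 10 genes outside this family that release, desaturate or elongate fatty acids or form or break down their epoxides, 2 rose and 1 fell in HFD livers. Over all genes 32.1% were called there, and 4.38% for HFD+AC261066 against HFD. *Pla2g6*, a phospholipase that frees fatty acids, had 0.68 (adjusted p = 0.00627) and *Cyp2j5*, another epoxygenase, 0.30 (adjusted p = 0.0116). *Ephx1*, the microsomal epoxide hydrolase, had -0.44 (adjusted p = 0.0317). *Ephx2*, the soluble hydrolase, had -0.06 (adjusted p = 0.758), with an SE of 0.12. With AC261066, *Cyp2j6* fell (-0.40, adjusted p = 0.0282) and *Fads2*, a desaturase on the route to arachidonic acid, rose (0.48, adjusted p = 0.0907).

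Of 17 receptors and factors that act on hepatic P450 genes, 4 rose and 2 fell in HFD livers, beside 32.1% of all genes called. *Hnf4a* had -0.55 (SE 0.13, adjusted p = 0.00472) and *Cux2*, a female-enriched repressor, -1.66 (adjusted p = 0.00566). *Cux2* was among the 8 genes whose difference was not the same in both sets, with -2.52 between them (adjusted p = 0.0433). *Nr1i3*, which encodes CAR, had 0.36 (SE 0.11, adjusted p = 0.0274), with chow values of 11.74, 12.21 and 12.27 and HFD values of 12.35, 12.47 and 12.51, and its lowest value was in the third chow liver. *Nr1i2*, which encodes PXR, had 0.10 (adjusted p = 0.429). By limma 0 of the 17 were called for HFD+AC261066 against HFD, with 0 higher and 2 lower at an unadjusted p under 0.05. Over all genes 4.38% were called in that comparison. *Hnf4a* had 0.11 and *Nr1i3* 0.04 there.

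Among 12 targets of CAR and PXR outside the family, 2 rose and 5 fell in HFD livers, and 3 fell with AC261066. Of all genes, 32.1% and 4.38% were called in these 2 comparisons. *Cyp3a11*, a PXR target, had -1.29 (adjusted p = 0.000228) and then -0.99 (adjusted p = 0.0149). The retinal dehydrogenase *Aldh1a1* had 0.88 in HFD livers (adjusted p = 0.000348). With AC261066 *Ces2a* had -0.40 (adjusted p = 0.0807) and *Abcc3* -0.39 (adjusted p = 0.0977).

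Among 14 genes of bile acid synthesis and transport, the pathway of *Cyp2c70*, 3 rose and 3 fell in HFD livers and 2 fell with AC261066. The latter were *Akr1d1*, the steroid reductase of bile acid synthesis (-0.62, SE 0.13, adjusted p = 0.0226), and *Cyp7a1*, the rate-limiting hydroxylase (-0.66, SE 0.20, adjusted p = 0.0871). *Akr1d1* had values of 12.53, 12.74 and 12.87 in HFD and 11.67, 12.04 and 12.57 in HFD+AC261066 livers. In HFD against chow *Akr1d1* had 0.55 (adjusted p = 0.00664), *Cyp27a1* -0.43 (adjusted p = 0.00316) and *Cyp7b1* -1.08 (adjusted p = 0.00866). Over all genes 32.1% were called in that comparison, and 4.38% for HFD+AC261066 against HFD.

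*Cyp2c40* and *Cyp2c69* belong to the genes known for higher levels in female liver. Of 9 tested female-predominant genes outside the family, 5 rose and 3 fell in HFD livers, with a median log2 difference of 0.53, and with AC261066 6 fell and 0 rose, with a median of -0.53. Over all genes 32.1% and 4.38% were called in these comparisons. *Cyp2b13*, 1 of the 5 that rose, had 3.46 in HFD against chow (adjusted p = 0.000138) and -3.02 with AC261066 (adjusted p = 0.00570). The 3 that fell were *Cyp3a16* (-0.59, then -0.36 with AC261066), *Cyp3a44* (-0.33, then -0.23) and *Cux2* (-1.66, then -0.03). *Cyp2c69* had -0.57 and -0.33. Of 11 male-predominant genes, 1 rose and 6 fell in HFD livers, and 2 rose with AC261066. *Cyp4a12b* had -2.47 and 1.48 (adjusted p = 8.08e-05 and 0.0293). By zone of the liver lobule, 0 of 11 pericentral genes were called with AC261066 by limma (0 higher and 1 lower at an unadjusted p under 0.05), and 4 rose and 1 fell in HFD livers. Of 11 periportal genes, 7 fell in HFD livers, *Pck1* by 1.10 on the log2 scale (adjusted p = 1.16e-05), and 2 rose with AC261066.

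Some markers of other liver cells differed between groups. Over all genes, 32.1% were called for HFD against chow, 4.38% for HFD+AC261066 against HFD and 19.7% for HFD+AC261066 against chow. Of 8 Kupffer cell and macrophage markers, 3 were higher in HFD livers and 5 in HFD+AC261066 livers, each beside chow. Their summed level ran from 8999 to 11193 in chow, 10472 to 13642 in HFD and 10575 to 17170 in HFD+AC261066 livers. Of 7 stellate cell markers, 3 rose with HFD and 3 fell with AC261066, among them *Col3a1* (0.99 and -1.28, adjusted p = 0.0396 and 0.0546), with summed levels of 4674 to 8283, 5772 to 10755 and 4966 to 6862. Of the 7 hepatocyte markers in the table, 3 fell with HFD and 0 were called with AC261066 by limma (2 higher and 0 lower at an unadjusted p under 0.05). Their summed level ran from 2835790 to 3524090, 2719420 to 3160590 and 2627960 to 3527150, so the groups overlapped. *Cfd*, the 1 adipocyte marker of 5 that was tested, had 2.31 in HFD livers (adjusted p = 9.29e-06) and -1.60 with AC261066 (adjusted p = 0.00316), and the summed level of the 4 adipocyte markers in the table ran from 17.0 to 29.5, 65.2 to 148 and 20.3 to 67.0. *Fabp2* was the 1 intestinal marker called in HFD livers (0.94, adjusted p = 0.00170), and its difference was not the same in both sets either, with 1.36 between them (adjusted p = 0.00753). By limma 0 of 5 cholangiocyte markers were called for HFD+AC261066 against HFD, with 2 lower at an unadjusted p under 0.05, and 2 of 6 endothelial markers rose. The part of cell composition in the Cyp2c differences was not tested.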

How the data were processed

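RNA-seq was done on livers of 18 mice, 6 in each group, and the labels give no further origin of replicates than 1 liver each. The log2 values were deposited by the authors, whose notes and methods name bcl2fastq 2.17, cutadapt, alignment with TopHat2 2.0.11 to mm9, HTSeq 0.6.1 for counting of paired reads of 51 bases, DESeq2 1.6.3 and a removal of batch effects. The transform that gave the log2 values is not given in the sources used here. The experiment was run in 2 rounds, and the labels do not say which mouse belongs to which. The labels' growth and extraction text describes other cells and a DNA kit and was not used.

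Of 20512 genes, 3620 were listed at 0 in every library. The test, limma 3.58.1 (R 4.3.3), took the 13268 genes whose log2 values averaged 2 or more, and used a variance trend, all 18 libraries in 1 fit and no batch term. Adjusted p-values are Benjamini-Hochberg values over all genes tested, and those under 0.1 are called. Precision rests on the number of livers. Locations came from GENCODE annotation of NCBIM37 and promoters from RefSeq (GRCm38.p6). A stretch counts as shared where another Cyp2c transcript holds the same 51 bases, or with up to 2 mismatches. Alternatives were a batch term, a replicate block, each set alone, other minimums, scalings and thresholds, and leaving out each liver. The test was checked on simulated data. Named genes were the members, their relatives, up to 4 genes of each list with the smallest p-values, a few fixed genes, and the 2 genes most like each member. The members and lists were chosen with earlier results of these data known.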

Additional observations from a re-analysis of the deposited data

Results flagged for a closer look

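Within a group of 6 livers, a library was picked out where its distance to the nearest other library took up more of the group's range than Dixon's critical value allows. This held for 7 of 39 groups examined, over 13 Cyp2c genes, where chance gives about 1 in 20. The 39 are the same livers seen through related genes, so they are not independent and no excess over chance is read from them. The third chow liver accounted for 4 of them, as the lowest log2 value of *Cyp2c29* (14.35), *Cyp2c37* (12.16), *Cyp2c50* (13.01) and *Cyp2c54* (12.04). The first HFD+AC261066 liver was lowest for *Cyp2c29*, at 14.65. The second HFD liver was highest for *Cyp2c40*, at 4.34, and the first HFD liver was highest for *Cyp2c67*, at 11.72.

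For *Cyp2c55*, the difference between groups was not the same in libraries 1 to 3 and libraries 4 to 6. The limma interaction, as the difference in libraries 4 to 6 minus that in libraries 1 to 3, was -2.06 for HFD against chow (adjusted p = 0.00271) and -0.998 for HFD+AC261066 against chow (adjusted p = 0.0648). The cause was not tested.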

How the results depend on the processing

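Over the 10 members and 3 comparisons, under each alternative except the stricter threshold, 779 differences kept their direction and their side of the threshold, 43 uncalled ones changed sign, 24 lost the call, 20 gained it and 1 reversed. The reversal was *Cyp2c55* in HFD against chow, at 0.91 in libraries 1 to 3 alone. In libraries 1 to 3 alone, with 3 livers a group, the members called fell from 3 to 1 for HFD against chow, from 3 to 1 for HFD+AC261066 against HFD and from 4 to 0 for HFD+AC261066 against chow, and the genes called were 922, 23 and 123. Libraries 4 to 6 alone called 4, 2 and 6 members, and 3061, 620 and 2857 genes. Quantile normalization called 5 members and 3762 genes for HFD against chow, with *Cyp2c29* and *Cyp2c40* gained. Leaving out 1 liver gave 2 to 5 members for HFD against chow (5 without the third chow liver), 2 to 4 for HFD+AC261066 against HFD, and 4 to 5 for HFD+AC261066 against chow. It gave 3480 to 4475, 275 to 938 and 1850 to 3120 genes, beside 4257, 581 and 2611 with all livers. The extremes for HFD+AC261066 against HFD came without the fourth and the sixth treated liver. For that comparison a batch term called 372 genes and a threshold of 0.05 called 270, and for HFD+AC261066 against chow that threshold called 1590. At 0.05 the calls of *Cyp2c69* in HFD against chow (adjusted p = 0.0614) and *Cyp2c38* in HFD+AC261066 against HFD (adjusted p = 0.0669) were lost. Of 18 pairs of libraries with the same replicate number, 2 had a correlation of deviations over 0.1 (range -0.361 to 0.148) and 0 matched best with their own number, so the numbers were not taken as pairing. A replicate block called 292 genes for HFD+AC261066 against HFD and gave *Cyp2c38* an adjusted p of 0.139. Scaling alternatives moved the median of all genes by under 0.1.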
